A study of Mus musculus with 14 samples.

Results

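The genes described here are 10 that encode enzymes and carriers of long-chain fatty acids: the elongases Elovl1, Elovl2, Elovl4 and Elovl5, the desaturases Fads1, Fads2 and Fads6, and the fatty acid binding proteins Fabp3, Fabp4 and Fabp5. They were taken by name from the 42687 genes of the count table, and all 10 were found in it. The choice was made with earlier results of these data known. Shares over all genes tested are therefore given beside their counts as a description only. The RNA came from retinal pigment epithelium (RPE) of 3-month-old male C57BL/6J mice, with the RPE of both eyes of a mouse pooled into 1 sample. KO mice were Best1-Cre+/-; Clic4f/f, in which Cre recombinase under the RPE promoter of Best1 removes the floxed gene of the chloride intracellular channel protein Clic4. Such deletion starts only after birth and depends on the share of RPE cells with active Cre. KO mice were compared in 3 sets, each with its own controls. In the WT set, 3 KO mice stood against 3 wild type mice without Cre or floxed alleles. In the Ctrl set, 2 KO mice stood against 2 Clic4f/f mice without Cre, and in the CreCtrl set 2 KO mice stood against 2 Best1-Cre+/- mice without floxed alleles. Libraries are named here by group and replicate, with the set of a KO library in parentheses, as in KO(Ctrl) 2. The sets had no library in common, and a KO library was assigned to the set whose controls have titles of the same style.

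Long-chain polyunsaturated fatty acids are built from shorter dietary ones by alternating steps of desaturation, in which FADS enzymes add a double bond, and elongation, in which ELOVL enzymes carry out the condensing and rate-limiting reaction. Photoreceptor outer segments are rich in docosahexaenoic acid, and the RPE takes up their shed tips daily, recycles this acid to the retina and burns much of the remaining lipid. Fatty acid binding proteins carry fatty acids within the cytosol, and different cell types express different members: Fabp3 is typical of heart and skeletal muscle, Fabp4 of adipocytes, macrophages and capillary endothelium, and Fabp5 of epidermis and macrophages.

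The genes lie on 6 chromosomes (GRCm38, GENCODE M21). Fads1 (chr19:10182888-10196877, plus strand) and Fads2 (chr19:10062765-10101746, minus strand) lie on the same chromosome, as do Fabp5 (chr3:10012548-10016607, plus strand) and Fabp4 (chr3:10204088-10208576, minus strand). Elovl5 (chr9:77917364-77984519, plus strand) and Elovl4 (chr9:83778692-83806277, minus strand) share a chromosome, and so do Elovl1 (chr4:118428093-118432953, plus strand) and Fabp3 (chr4:130308595-130315463, plus strand). Elovl2 is at chr13:41182381-41220405 (minus strand) and Fads6 at chr11:115279622-115297663 (minus strand).

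In KO vs. WT the elongases and the classical desaturases rose while the binding proteins fell. Elovl2, Elovl4 and Fads2 rose by 4.82-fold, 4.08-fold and 5.36-fold, and Fabp4 and Fabp5 fell to 0.0689 and 0.193 of the WT level. Of the 10 genes, 9 passed an adjusted p of 0.05 in edgeR's quasi-likelihood test, 6 higher and 3 lower in KO, where 35.1% of all genes tested passed (16.1% higher and 19.0% lower). Fabp3, among the 3 lower, had 0 counts in KO(WT) and passed the filter on low counts through the WT libraries alone. In KO vs. CreCtrl, 5 of the 9 genes tested passed, 3 higher (Elovl2, Elovl4 and Fads2) and 2 lower (Fabp4 and Fabp5), against 15.8% of all genes tested (3.60% higher and 12.2% lower). These 5 became 8 without CreCtrl 1, 3 without CreCtrl 2, 2 without KO(CreCtrl) 2, and 0 in a fit of all 14 libraries as 6 groups. In KO vs. Ctrl 0 of 9 passed in edgeR, against 0% of all genes tested, and 0 had an unadjusted p under 0.05, against 12.1%. DESeq2 also called 0 of the 9. The share over all genes was not kept for DESeq2, for fits with 1 library left out or for the KO differences in the fit of 6 groups.

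Level is given as counts-per-million (CPM), scaled with TMM factors over all 14 libraries. Total counts ran from 9828293 to 32384166 per library. Clic4, the targeted gene, was at 218 to 230 CPM in WT, 62.1 to 71.4 in Ctrl and 86.5 to 108 in CreCtrl, and at 9.78 to 33.9 in the 7 KO libraries, below all controls, although its difference did not pass the test in KO vs. Ctrl (edgeR adjusted p = 0.333). Of 10 RPE markers, 0 were at 0 in any group. Their summed level was 16513 to 24002 CPM in WT, 48304 to 48527 in Ctrl and 51304 to 59437 in CreCtrl, and 74219 to 85104 in KO of any set. Of this sum Ttr alone was 6955 to 12059 CPM in WT, 16999 to 28586 in the other controls and 28789 to 42394 in KO. Summed fibroblast markers were at 8039 to 8247 CPM in WT, 1241 to 2412 in Ctrl and 1402 to 2799 in CreCtrl, and at 125 to 792 in KO. The WT libraries thus stood apart from the other controls in both marker sums, and KO libraries lay above every control in summed RPE markers and below every control in summed fibroblast markers. The part of this difference in the results below was not tested, and in bulk RNA fewer cells of a type cannot be told apart from less RNA per cell.

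**Figure D1:**
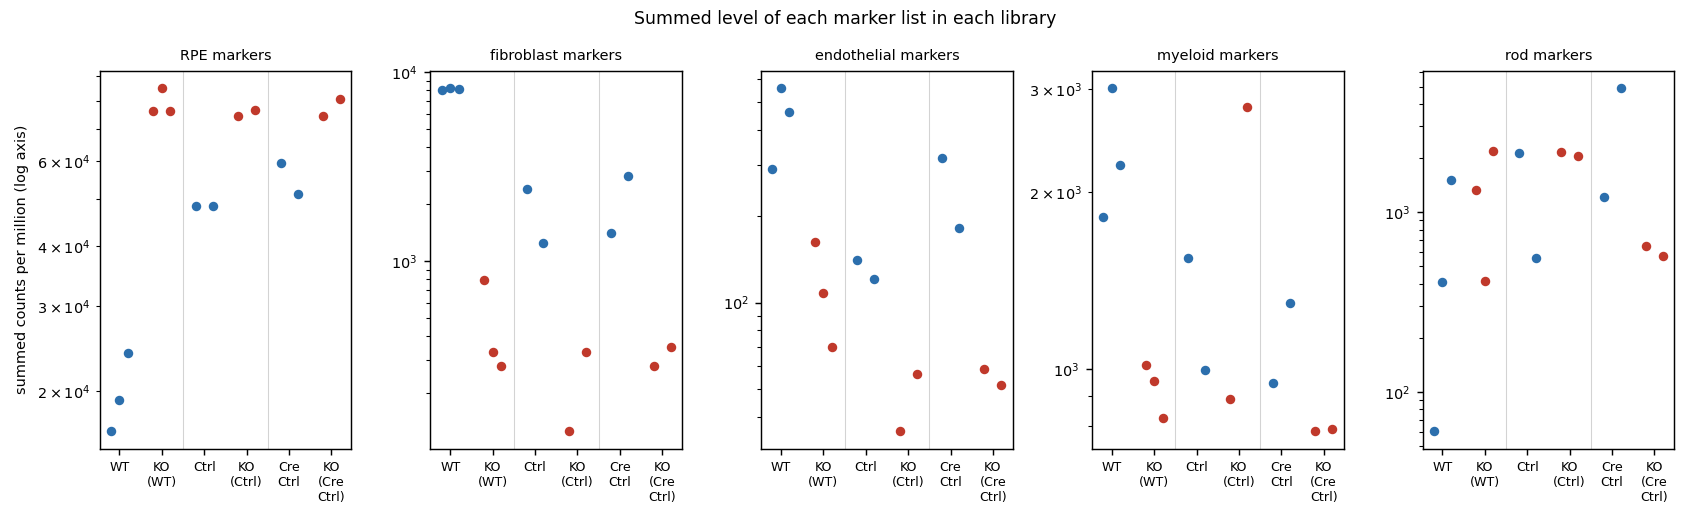
Summed CPM (log axis) of 10 markers each of RPE, fibroblasts, endothelium, myeloid cells and rods in each library, with controls in blue and KO in red, and with a separate y axis range in each panel. RPE markers are lowest in WT and highest in the 7 KO libraries, and the myeloid sum of KO(Ctrl) 2 (2800 CPM) stands above the other KO libraries (782 to 1017 CPM, of which the marker Csf1r alone makes up 712 to 836 CPM).

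Because the 4 elongases were each higher in KO vs. WT, the bases before their starts are shown. RefSeq promoters (GRCm38.p6, 250 bases before to 50 after the start) were found for 7 of the 10 genes, all but Fads1, Fabp4 and Fabp5. The RefSeq start used lay 0 to 28 bases from the 5′ end of the GENCODE gene for the 4 elongases. It lay inside the GENCODE gene by 243 bases for Fads2, 143 for Fabp3 and 101 for Fads6, whose stretches are therefore not shown. The windows were searched on both strands for the E-box CACGTG, the related E-box CATGTG, the CCAAT box and the nuclear receptor half-site AGGTCA. Capitals mark a match, and no match overlapped another. The stretches are chr4:118427843-118428092 (plus strand) for Elovl1, chr13:41220404-41220653 (minus strand) for Elovl2, chr9:83806306-83806555 (minus strand) for Elovl4 and chr9:77917115-77917364 (plus strand) for Elovl5, each read 5′ to 3′ on the strand of its gene and ending at the base before the RefSeq start.
Elovl1: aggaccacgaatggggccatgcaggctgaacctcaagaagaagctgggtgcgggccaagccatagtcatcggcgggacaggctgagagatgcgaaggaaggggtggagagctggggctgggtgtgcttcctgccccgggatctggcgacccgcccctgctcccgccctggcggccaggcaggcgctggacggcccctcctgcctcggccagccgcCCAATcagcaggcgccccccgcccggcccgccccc
Elovl2: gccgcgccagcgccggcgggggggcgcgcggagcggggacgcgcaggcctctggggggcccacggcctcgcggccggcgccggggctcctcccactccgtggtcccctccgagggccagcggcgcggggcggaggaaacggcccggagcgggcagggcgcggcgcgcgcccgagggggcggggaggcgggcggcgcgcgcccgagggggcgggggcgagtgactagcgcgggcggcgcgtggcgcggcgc
Elovl4: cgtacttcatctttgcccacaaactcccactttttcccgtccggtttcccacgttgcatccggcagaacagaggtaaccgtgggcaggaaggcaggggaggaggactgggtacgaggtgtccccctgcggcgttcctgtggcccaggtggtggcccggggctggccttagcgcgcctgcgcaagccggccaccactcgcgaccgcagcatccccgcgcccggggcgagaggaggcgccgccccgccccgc
Elovl5: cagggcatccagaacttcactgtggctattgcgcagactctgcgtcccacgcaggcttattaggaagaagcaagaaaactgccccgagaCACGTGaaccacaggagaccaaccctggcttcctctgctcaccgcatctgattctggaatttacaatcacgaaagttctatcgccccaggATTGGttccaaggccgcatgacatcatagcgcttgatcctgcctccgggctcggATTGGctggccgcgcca
CACGTG was found in 2 of the 7 windows, those of Elovl5 (first base 161 before the start) and Elovl4 (first base 5 after the start, so in a stretch not shown), and in 7.15% of all 32851 promoters of that length. CATGTG was found only in that of Fabp3, and in 14.2% of all. CCAAT was found in those of Elovl1, Elovl4 (also after the start) and Elovl5, and in 37.4% of all, and AGGTCA only in that of Fads6, and in 16.3% of all. Elovl2 and Fads2, which had the largest fitted rises of the 10 genes in KO vs. WT, held none of these letters in the window. The stretches of the 4 elongases were 72.0%, 87.2%, 69.6% and 55.6% G or C in the order shown, and the median over all promoters was 52.4%.

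Elovl2 elongates polyunsaturated fatty acids of intermediate length on the route to docosahexaenoic acid. Its level was 4.51, 7.66 and 9.59 CPM in WT 1 to 3, and 38.4, 34.2 and 43.5 CPM in KO(WT) 1 to 3. It was 43.0 and 51.9 CPM in Ctrl 1 and 2 against 70.5 and 40.0 in KO(Ctrl) 1 and 2, and 39.5 and 23.6 CPM in CreCtrl 1 and 2 against 60.8 and 83.0 in KO(CreCtrl) 1 and 2. KO and control did not overlap in the WT and CreCtrl sets, whereas in the Ctrl set KO(Ctrl) 2 lay below both controls. The log2 fold change was 2.27 (SE 0.31, edgeR adjusted p = 0.000647) in KO vs. WT, 1.15 (SE 0.27, adjusted p = 0.0351) in KO vs. CreCtrl and 0.22 (SE 0.33, adjusted p = 0.918) in KO vs. Ctrl. The call in KO vs. CreCtrl was lost without CreCtrl 2 (0.80, adjusted p = 0.0634) or without KO(CreCtrl) 2 (0.89, adjusted p = 0.0923).

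Elovl4, which builds very long chain fatty acids and whose mutations cause Stargardt-like macular dystrophy, showed a similar order of groups. It was at 8.53, 14.8 and 25.6 CPM in WT 1 to 3 and at 66.9, 82.9 and 72.7 CPM in KO(WT) 1 to 3. In the other sets it was at 76.5 and 75.6 CPM in Ctrl against 106 and 99.0 in KO(Ctrl), and at 60.8 and 54.0 CPM in CreCtrl against 92.3 and 106 in KO(CreCtrl). KO lay above control without overlap in all 3 sets, but the WT level was far below that of the other controls, and KO(WT) lay below KO of the other sets. Its log2 fold change was 2.03 (SE 0.35, edgeR adjusted p = 0.00245) in KO vs. WT, 0.76 (SE 0.16, adjusted p = 0.0258) in KO vs. CreCtrl and 0.43 (SE 0.21, adjusted p = 0.535) in KO vs. Ctrl. The CreCtrl call was lost without CreCtrl 2 (0.65, adjusted p = 0.0617) or without KO(CreCtrl) 2 (0.63, adjusted p = 0.145).

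Elovl5 elongates polyunsaturated fatty acids at an earlier step than Elovl2. Its level was 55.0, 63.5 and 74.5 CPM in WT 1 to 3 and 109, 123 and 114 CPM in KO(WT) 1 to 3, a log2 fold change of 0.70 (SE 0.14, edgeR adjusted p = 0.00549). It was 107 and 110 CPM in Ctrl against 133 and 121 in KO(Ctrl), and 111 and 84.3 CPM in CreCtrl against 128 and 157 in KO(CreCtrl). KO lay above control in each set without overlap, with log2 fold changes of 0.22 (SE 0.21, adjusted p = 0.845) in KO vs. Ctrl and 0.51 (SE 0.20, adjusted p = 0.104) in KO vs. CreCtrl that did not pass.

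Elovl1, which elongates saturated and monounsaturated chains for sphingolipids, was at 121, 194 and 152 CPM in WT 1 to 3 and at 448, 443 and 525 CPM in KO(WT) 1 to 3. The log2 fold change was 1.46 (SE 0.19, edgeR adjusted p = 0.000523). In the other sets it was at 302 and 305 CPM in Ctrl against 433 and 416 in KO(Ctrl), and at 345 and 257 CPM in CreCtrl against 413 and 397 in KO(CreCtrl). Here too the groups did not overlap, and log2 fold changes of 0.48 (SE 0.22, adjusted p = 0.493) and 0.39 (SE 0.20, adjusted p = 0.180) did not pass. Elovl1 was the only 1 of the 10 genes whose 7 KO libraries (397 to 525 CPM) all lay above all 7 controls (121 to 345 CPM), as did 3.35% of all genes tested over the 3 sets. Its exons share 53 bases (1.94% of their length) with Cdc20 on the opposite strand.

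KO lay above control without overlap for 4 of 4 elongases in the WT set, 3 of 4 in the Ctrl set and 4 of 4 in the CreCtrl set, as did 28.7%, 18.3% and 37.3% of all genes tested in the same order. Their median log2 fold change was 1.74, 0.33 and 0.64, beside medians of -0.08, 0.01 and -0.02 over all genes tested and of 1.73, 0.58 and 0.66 over the 10 RPE markers. Of these RPE markers, KO vs. WT had 9 that passed as higher, KO vs. Ctrl had 0, and KO vs. CreCtrl had 1 (Lrat, which esterifies retinol, chosen here after its value was seen). Best1, also chosen after its value was seen, went the other way in the WT and CreCtrl sets. Its mean was 4.47 CPM in WT against 1.39 in KO(WT), and 2.92 in CreCtrl against 1.38 in KO(CreCtrl). In the Ctrl set it was 2.08 against 2.18 CPM.

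**Figure D2:**
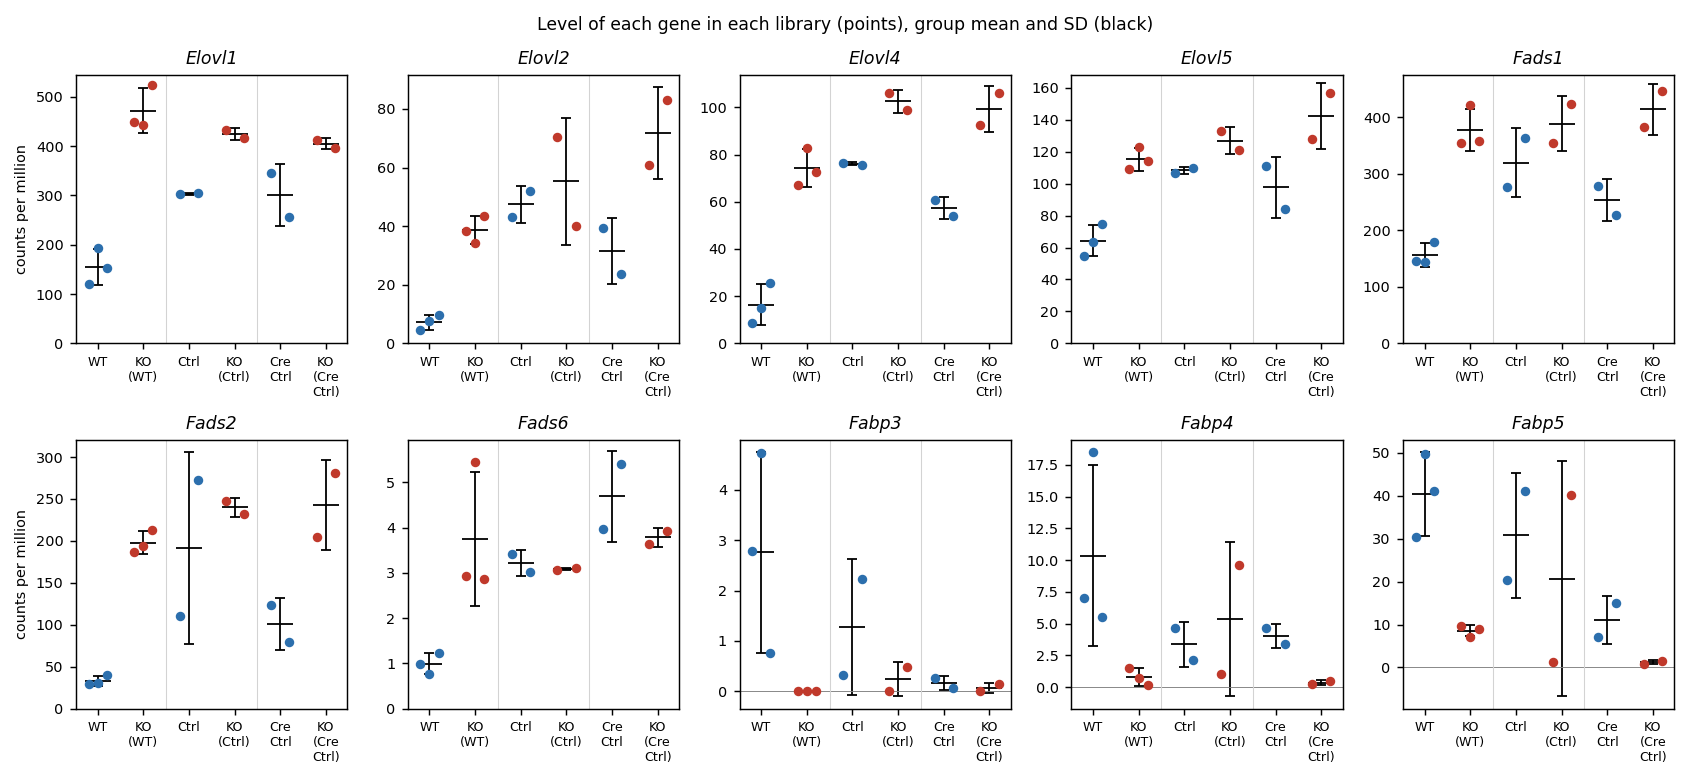
CPM of each of the 10 genes (y axis from or below 0, separate range in each panel) in each library, with controls in blue, KO in red, and black bars for the group mean and SD (3 libraries a group in the WT set, 2 in the others). For Elovl2, Elovl4 and Fads2 the WT libraries are the lowest of all groups, and for Fabp4 and Fabp5 1 library, KO(Ctrl) 2, stands above the other KO libraries.

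Fads2 and Fads1 encode the front-end desaturases of polyunsaturated fatty acids, of which Fads2 acts at the entry step. Fads2 was at 29.1, 31.0 and 40.2 CPM in WT 1 to 3 and at 187, 194 and 213 CPM in KO(WT) 1 to 3. It was at 111 and 273 CPM in Ctrl 1 and 2 against 248 and 232 in KO(Ctrl), and at 123 and 79.4 CPM in CreCtrl against 205 and 281 in KO(CreCtrl). Ctrl 2 lay above both KO libraries of its set, so that the groups overlapped in the Ctrl set and not in the other sets. The log2 fold change of Fads2 was 2.42 (SE 0.16, edgeR adjusted p = 3.47e-05) in KO vs. WT, 1.23 (SE 0.26, adjusted p = 0.0266) in KO vs. CreCtrl and 0.33 (SE 0.43, adjusted p = 0.901) in KO vs. Ctrl. In KO vs. Ctrl it was -0.17 without Ctrl 1 and 1.10 without Ctrl 2, and in KO vs. CreCtrl the call was lost without KO(CreCtrl) 2 (0.97, adjusted p = 0.0607).

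Fads1 was at 145, 143 and 180 CPM in WT 1 to 3 and at 355, 421 and 358 CPM in KO(WT) 1 to 3. It was at 276 and 363 CPM in Ctrl against 354 and 423 in KO(Ctrl), and at 279 and 227 CPM in CreCtrl against 382 and 446 in KO(CreCtrl). KO and control overlapped only in the Ctrl set. Its log2 fold change was 1.13 (SE 0.14, edgeR adjusted p = 0.000480) in KO vs. WT, 0.68 (SE 0.19, adjusted p = 0.0544) in KO vs. CreCtrl and 0.28 (SE 0.26, adjusted p = 0.834) in KO vs. Ctrl. The KO vs. CreCtrl difference passed in DESeq2 (0.71, adjusted p = 0.00256).

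Fads6, a desaturase family member whose substrate is not settled, was a rare transcript with 9 to 113 counts per library. Its level was 0.985, 0.774 and 1.23 CPM in WT 1 to 3 and 2.93, 5.45 and 2.87 CPM in KO(WT) 1 to 3. It was 3.42 and 3.01 CPM in Ctrl against 3.07 and 3.10 in KO(Ctrl), and 3.98 and 5.40 CPM in CreCtrl against 3.64 and 3.93 in KO(CreCtrl). KO lay above all controls in the WT set, within them in the Ctrl set and below them in the CreCtrl set. None of the log2 fold changes passed: 1.75 (SE 0.77, edgeR adjusted p = 0.115) in KO vs. WT, -0.06 (SE 0.52, adjusted p = 0.988) in KO vs. Ctrl and -0.34 (SE 0.35, adjusted p = 0.504) in KO vs. CreCtrl. In the fit of all 14 libraries as 6 groups the KO vs. WT difference passed (1.90, adjusted p = 0.00748).

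Fabp5 was the most abundant of the 3 binding proteins by counts per kilobase of its principal transcript in WT (41.0 ± 9.85 CPM per kb, SD, n = 3). It was at 30.4, 49.8 and 41.1 CPM in WT 1 to 3 and at 9.73, 7.13 and 8.89 CPM in KO(WT) 1 to 3. In the CreCtrl set it was at 7.14 and 15.0 CPM in CreCtrl against 0.826 and 1.49 in KO(CreCtrl), and in the Ctrl set at 20.4 and 41.1 CPM in Ctrl against 1.30 and 40.1 in KO(Ctrl) 1 and 2. The Ctrl set thus held 1 KO library far below its controls and 1 at their level. The log2 fold change was -2.38 (SE 0.26, edgeR adjusted p = 0.000226) in KO vs. WT, -3.26 (SE 0.50, adjusted p = 0.00999) in KO vs. CreCtrl and -0.57 (SE 1.27, adjusted p = 0.954) in KO vs. Ctrl. Without KO(Ctrl) 2 the last was -4.55, and without KO(Ctrl) 1 it was 0.38.

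Fabp4 was at 6.98, 18.5 and 5.48 CPM in WT 1 to 3 and at 1.50, 0.699 and 0.134 CPM in KO(WT) 1 to 3. It was at 4.66 and 3.36 CPM in CreCtrl against 0.207 and 0.487 in KO(CreCtrl), and at 4.61 and 2.12 CPM in Ctrl against 1.04 and 9.61 in KO(Ctrl) 1 and 2. As for Fabp5, KO lay below control without overlap in the WT and CreCtrl sets, as did 24.5% and 34.9% of all genes tested. KO(Ctrl) 2 was the highest library of its set for Fabp4, and for Fabp5 lay just under Ctrl 2. Fabp4 fell by 3.86 on the log2 scale (SE 0.88, edgeR adjusted p = 0.00939) in KO vs. WT and by 3.52 (SE 0.58, adjusted p = 0.0120) in KO vs. CreCtrl. Its log2 fold change in KO vs. Ctrl was 0.67 (SE 1.04, adjusted p = 0.921), and -1.68 without KO(Ctrl) 2. The KO vs. WT call was lost without WT 2 (-3.14, adjusted p = 0.0562).

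Fabp3 had 34, 55 and 11 counts in WT 1 to 3 (2.79, 4.73 and 0.754 CPM) and 0 counts in each of KO(WT) 1 to 3, where 3 counts would be 0.201 to 0.210 CPM. Taking 3 counts per library as the floor, it was at least 13.5-fold lower in KO vs. WT (edgeR adjusted p = 0.0115). It had 5 and 60 counts in Ctrl and 0 and 8 in KO(Ctrl), and 6 and 1 counts in CreCtrl and 0 and 4 in KO(CreCtrl). In the WT set it passed the filter on low counts through the WT libraries alone. Within the Ctrl and CreCtrl sets it was too rare to pass this filter and was not tested. Its exons share 80 bases (9.72%) with Gm10570 and 81 bases (9.84%) with Zcchc17, both on the opposite strand, and the strand setting of the counting is not given in the sources used here.

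Marker lists of cell types that express binding proteins are given beside these values, and they did not all follow them. Summed myeloid markers were at 1819 to 3017 CPM in WT against 825 to 1017 in KO(WT), 947 to 1297 in CreCtrl against 782 to 789 in KO(CreCtrl), and 994 to 1547 in Ctrl against 887 and 2800 in KO(Ctrl) 1 and 2. In the KO libraries other than KO(Ctrl) 2 most of this sum was Csf1r, which was at 695 to 836 CPM in KO and 450 to 614 CPM in controls. The other 9 myeloid markers, summed without it after its values were seen, were at 1334 to 2528 CPM in WT against 85.1 to 245 in KO(WT), 333 to 741 in CreCtrl against 39.8 to 76.3 in KO(CreCtrl), and 544 to 966 in Ctrl against 121 and 2104 in KO(Ctrl) 1 and 2. Of the 10 myeloid markers 9 passed as lower in KO vs. WT and 9 in KO vs. CreCtrl (19.0% and 12.2% of all genes tested), with a median log2 fold change over the 10 of -3.62 and -2.79. The library KO(Ctrl) 2, with the highest Fabp4 and Fabp5 of the KO libraries, was also the highest of them in myeloid markers, and its Lyz2, a lysozyme of myeloid cells, was at 1370 CPM against 8.34 to 121 CPM in the other KO libraries (a marker chosen after its values were seen). Summed endothelial markers were lower in KO of every set (292 to 559 CPM against 70.3 to 162, 121 to 141 against 35.6 to 56.3, and 182 to 319 against 51.5 to 58.7, in the WT, Ctrl and CreCtrl sets), and 0 of these 10 myeloid and 0 of these 10 endothelial markers were at 0 throughout any group. The part of these cell types in the fall of the binding proteins was not tested. Of the 7 adipocyte markers Lep was at 0 in 14 of 14 libraries and Adipoq in 12 of 14, with at most 0.418 CPM, while their sum was 21.7 to 46.8 CPM, most of it Plin4. Summed skeletal muscle markers were at 7.55 to 20.7 CPM in WT and 1.49 to 5.87 in all other groups, with 4 of the 8 at 0 in each KO group.

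**Figure D3:**
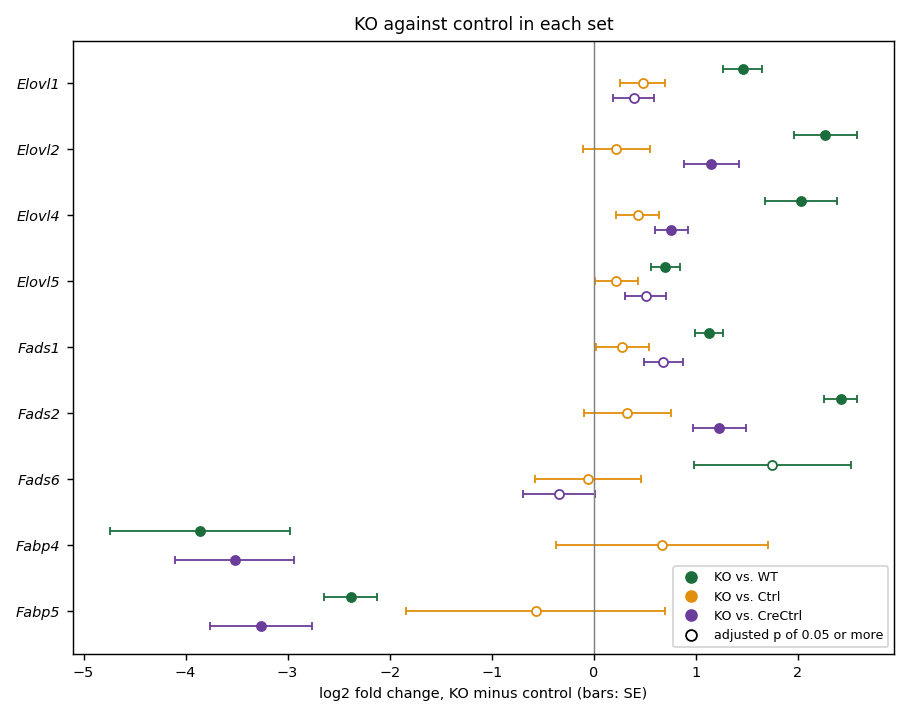
Log2 fold change (KO minus control, bars for SE) of 9 of the 10 genes in each set by edgeR, with filled points for an adjusted p under 0.05. Fabp3 is left out, as it had 0 counts in KO(WT) and, of the tests within a set, entered that of the WT set only. The elongases, Fads1 and Fads2 lie to the right of 0 in each set and furthest in KO vs. WT, and Fabp4 and Fabp5 lie to the left in KO vs. WT and KO vs. CreCtrl.

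Whether the sets differed was tested as a difference of their KO log2 fold changes in the fit of all 14 libraries. Shares over all genes are given for the fit with all libraries only and were not kept with 1 library left out. Between the WT and Ctrl sets 5 of the 10 genes passed, each with the larger log2 fold change in the WT set, against 5.15% of all genes tested (4.34% in that direction). These were Fads2 (difference 2.24, SE 0.44, edgeR adjusted p = 0.0161), Elovl2 (2.19, SE 0.46, adjusted p = 0.0204), Elovl4 (1.75, SE 0.43, adjusted p = 0.0380), Elovl1 (1.11, SE 0.27, adjusted p = 0.0371) and Fads1 (1.00, SE 0.25, adjusted p = 0.0426). The number was 0 without Ctrl 2 or without KO(Ctrl) 2, and 2 or 3 without WT 1, WT 2, any library of KO(WT) or any library of KO(CreCtrl). Without KO(Ctrl) 1, Elovl1 (adjusted p = 0.0645), Elovl4 (0.0676) and Fads1 (0.106) lost their calls, and Fabp4 (-5.22, adjusted p = 0.0365) and Fabp5 (-2.60, adjusted p = 0.0302) passed in the opposite direction. Between the WT and CreCtrl sets 0 of 10 passed in edgeR (1.49% of all genes), with 7 at an unadjusted p under 0.05 (14.9% of all genes), and between the Ctrl and CreCtrl sets 0 of 10 passed (0% of all genes), with 1 at an unadjusted p under 0.05 (8.75% of all genes). The KO levels of Elovl4 and Elovl2 spanned a narrower fold range than the control levels. Elovl4 was at 66.9 to 106 CPM over the 7 KO libraries and at 8.53 to 76.5 over the 7 controls, and Elovl2 at 34.2 to 83.0 against 4.51 to 51.9.

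With the 7 KO against the 7 control libraries and the set as a covariate, 9 of the 10 genes passed, 6 higher and 3 lower, against 36.2% of all genes tested (18.5% higher and 17.6% lower). The average log2 fold change was 1.55 (SE 0.32) for Fads2, 1.42 (SE 0.32) for Elovl2, 1.27 (SE 0.28) for Elovl4, 0.94 (SE 0.19) for Elovl1, 0.83 (SE 0.16) for Fads1 and 0.58 (SE 0.12) for Elovl5, with edgeR adjusted p from 0.00161 to 0.00390. It was -2.02 (SE 0.58, adjusted p = 0.0138) for Fabp5, -2.56 (SE 0.88, adjusted p = 0.0341) for Fabp4 and -3.65 (SE 1.30, adjusted p = 0.0409) for Fabp3. Fabp3 passed the filter on low counts in this fit through control libraries alone. With 1 library left out, Fabp3 kept its call only without WT 3, Ctrl 1, KO(Ctrl) 2, CreCtrl 2 or KO(CreCtrl) 2 (-4.96 to -3.18 over all 14 such fits), and Fabp4 only without WT 1, WT 3 or any library of the Ctrl set (-3.18 to -2.13). Fads6 did not pass (0.67, SE 0.40, adjusted p = 0.220). The median over the 10 genes was 0.75 against -0.02 over all genes tested, and within the WT set 1.29 against -0.08, which is also 1.29 with Fabp3 at its bound.

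Per kilobase of principal transcript, Elovl1 and Fads1 were the highest of the 10 genes in each of the 6 groups. In KO(WT) the order of mean levels was Elovl1 (261 CPM per kb), Fads1 (109), Fads2 (62.9), Elovl5 (41.5), Elovl4 (24.7) and Elovl2 (10.1), then Fabp5 (8.70), Fabp4 (0.868), Fads6 (0.757) and Fabp3 (0). Neighbours in this order did not overlap between libraries except Elovl2 with Fabp5 and Fabp4 with Fads6. In WT the order was Elovl1 (86.0), Fads1 (45.1), Fabp5 (41.0), Elovl5 (23.1), Fabp4 (11.5), Fads2 (10.6), Elovl4 (5.43), Fabp3 (3.35), Elovl2 (1.89) and Fads6 (0.201). Here Fads1 overlapped with Fabp5, Elovl5 with Fabp4, Fabp4 with Fads2, Elovl4 with Fabp3, and Fabp3 with Elovl2, so these neighbours were not told apart. With the length of all merged exons instead, which intron-retaining transcripts inflate for Fabp4 (4489 against 896 bases) and Fabp5 (3567 against 987 bases), these 2 genes moved down the order in WT, to ranks 8 and 4.

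Of 57 other genes of the pathway, 46 were tested in KO vs. WT, with 20 higher (43.5%, against 16.1% of all genes tested) and 7 lower (15.2%, against 19.0%) in KO and a median log2 fold change of 0.41. In KO vs. Ctrl 0 of 47 passed (median 0.11), against 0% of all genes tested. In KO vs. CreCtrl 5 of 46 were higher (10.9%, against 3.60% of all genes tested) and 3 lower (6.52%, against 12.2%). The median there was 0.24. Of the 2 other elongases tested, Elovl7 rose in KO vs. WT (from 51.5 ± 7.70 to 268 ± 27.2 CPM, SD, n = 3 each, log2 fold change 2.24, edgeR adjusted p = 4.16e-05) and was at 1.10 (adjusted p = 0.0587) in KO vs. CreCtrl and 0.34 in KO vs. Ctrl, while Elovl6, which elongates palmitate, did not pass in any set. Elovl3 was at 0 in every library. Of the partners that complete each elongation cycle, 4 of 6 were higher in KO vs. WT, against 16.1% of all genes tested. These were Hsd17b12, the ketoacyl reductase (log2 fold change 1.28), the dehydratases Hacd3 (0.85) and Hacd2 (0.75), and the enoyl reductase Tecr (0.66, chosen after its value was seen). Hsd17b12 was also higher in KO vs. CreCtrl (0.94, edgeR adjusted p = 0.0319).

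Among other desaturases and their electron carriers, 4 of 8 were higher and 2 lower in KO vs. WT, against 16.1% and 19.0% of all genes tested, so that the lower share (25.0%) was near the background. Fads3 was higher (log2 fold change 1.60, edgeR adjusted p = 0.000205) and so was the stearoyl desaturase Scd2 (0.90, adjusted p = 0.00612), whereas Scd1, another stearoyl desaturase, fell by 1.23 on the log2 scale (adjusted p = 0.00703). The electron carrier Cyb5b was higher in KO vs. WT (0.83) and in KO vs. CreCtrl (0.69, adjusted p = 0.0467), and was at -0.03 in KO vs. Ctrl. Scd1 was at -0.15 and -0.20 in KO vs. Ctrl and KO vs. CreCtrl, neither past the test.

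Of the 12 uptake and activation genes tested, 7 were higher and 2 lower in KO vs. WT, where 16.1% and 19.0% of all genes tested were, and the lower share (16.7%) was thus at the background. Cd36, a fatty acid translocase and scavenger receptor that RPE, endothelium and macrophages all express, was at 55.9, 63.8 and 44.7 CPM in WT and at 4.49, 3.21 and 3.14 CPM in KO(WT). It was at 80.5 and 25.6 CPM in Ctrl against 4.83 and 73.5 in KO(Ctrl) 1 and 2, and at 11.5 and 27.9 CPM in CreCtrl against 1.07 and 3.30 in KO(CreCtrl). As for Fabp4 and Fabp5, KO lay below control without overlap in the WT and CreCtrl sets, and KO(Ctrl) 2 stood at the level of the controls. Cd36 fell by 4.06 on the log2 scale in KO vs. WT (SE 0.24, edgeR adjusted p = 2.60e-05) and by 3.18 in KO vs. CreCtrl (SE 0.61, adjusted p = 0.0200), and was at -0.44 in KO vs. Ctrl. The acyl-CoA synthetases moved in both directions in KO vs. WT, with Acsl6 higher (1.47, from 569 ± 134 to 1735 ± 49.2 CPM, SD, n = 3 each) and Acsl5 lower (-2.15). The transporter Slc27a4 was higher in KO vs. WT (0.90) and KO vs. CreCtrl (0.88, adjusted p = 0.0217).

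Peroxisomes shorten very long chains in the last step to docosahexaenoic acid. Of their genes, the thiolase Scp2 (log2 fold change 1.74, SE 0.17, edgeR adjusted p = 0.000155) and the importer Abcd3 (1.14, SE 0.11, adjusted p = 0.000142) were higher in KO vs. WT. Scp2 (0.85, adjusted p = 0.0414) and Abcd3 (0.79, adjusted p = 0.0426) were also higher in KO vs. CreCtrl, and were at 0.77 and 0.23 in KO vs. Ctrl, neither past the test.

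Of the 10 transcription factors of fatty acid genes, 0 were higher and 2 lower in KO vs. WT, where 16.1% of all genes tested were higher and 19.0% lower, so that their count was near the background. The 2 were Pparg (log2 fold change -1.15, edgeR adjusted p = 0.0381) and Rxra (-0.56, adjusted p = 0.0345), and their median was -0.18. In KO vs. CreCtrl 1 was lower, the carbohydrate-responsive Mlxipl (-1.77, adjusted p = 0.0147, chosen after its value was seen). Pparg, a fatty acid receptor of adipocytes and macrophages, was at 13.3 ± 0.825 CPM in WT and 6.61 ± 2.69 in KO(WT) (SD, n = 3 each), and at 0.08 in log2 fold change in both KO vs. Ctrl and KO vs. CreCtrl. Of 7 other binding proteins, 1 was tested in KO vs. WT and did not pass, and Fabp2, Fabp9 and Pmp2 were at 0 in every library. In KO vs. CreCtrl the 1 tested, Fabp12, was lower (-3.30, adjusted p = 0.0410, chosen after its value was seen). It was at 1.37 and 7.17 CPM in CreCtrl 1 and 2 and 0.496 and 0.382 in KO(CreCtrl), and summed rod markers were at 1214 and 4917 CPM and at 647 and 569 CPM in the same libraries. The part of rods in this difference was not tested.

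**Figure D4:**
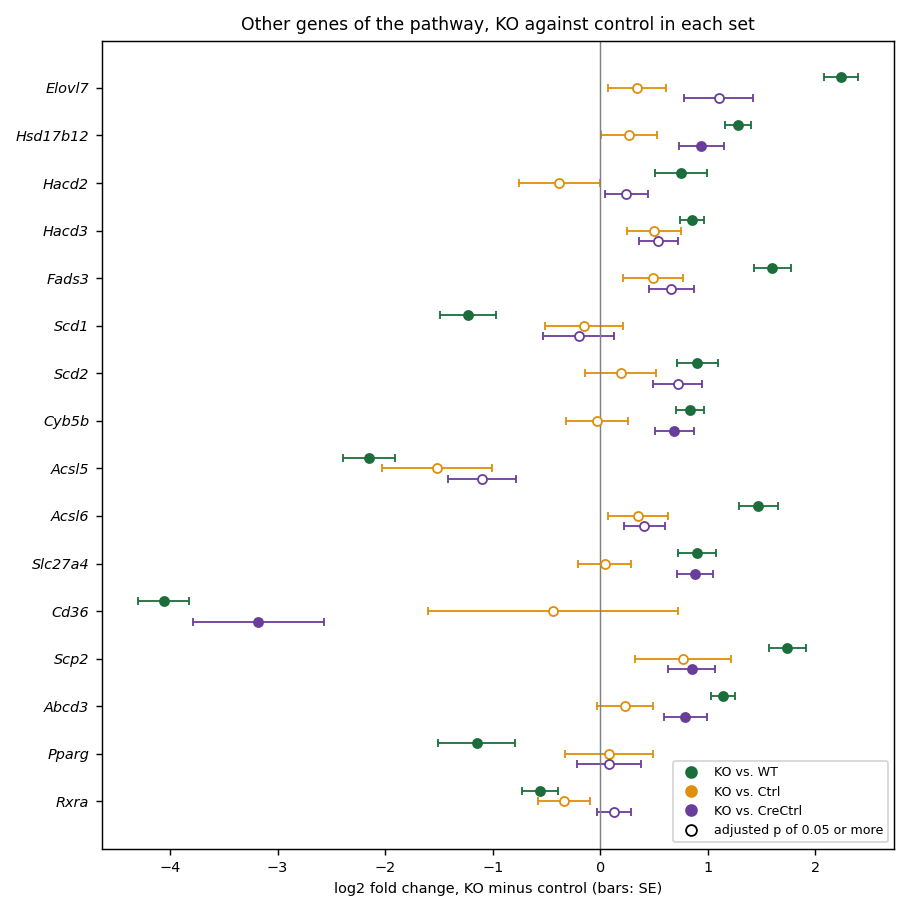
Log2 fold change (KO minus control, bars for SE) of 16 other pathway genes in each set by edgeR, with filled points for an adjusted p under 0.05. Most lie to the right of 0 in KO vs. WT, Cd36 lies furthest to the left (-4.06), and no point of KO vs. Ctrl is filled.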

How the data were processed

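RNA of purified RPE was sequenced from 14 mice with stranded poly(A) libraries. The authors deposited 1 table of read counts per Ensembl gene. Per the submitters' processing notes the tools were bcl2fastq 2.19, STAR 2.5.2, Cufflinks 2.1.1 and HTSeq 0.11.2, with alignment to GRCm38. The strand setting and annotation release of the counting are not given in the sources used here. GENCODE M21 named 42329 of the 42687 genes.

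Within each set, KO was tested against control with the quasi-likelihood method of edgeR 4.0.16 (R 4.3.3), with TMM, filterByExpr and Benjamini-Hochberg adjustment over all genes tested, and called at an adjusted p under 0.05. The 3 sets together were fitted with the set as a covariate, and differences between sets with 6 groups. DESeq2 1.42.0, other normalizations, filters, a replicate block and each library left out were alternatives. CPM use TMM factors over all 14 libraries. Within each set the p-values rest on the spread between mice of a group. In the fit over the 3 sets this spread also holds differences of the KO effect between sets. The fit of 6 groups shares a single estimate of the spread per gene over all sets. An exact permutation test of single values could not go below p = 0.100 with 3 against 3 or 0.333 with 2 against 2, so none was run. The tests within each set and over the 3 sets were first checked on simulated counts. The fit of 6 groups and the replicate block were not. Counts of replicates differed by more than sampling noise (chi-square per gene 18.7 to 124), so none was a repeat deposit.

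The 10 genes, the lists of other pathway genes and the marker lists were chosen with earlier results of these data known. All 10 genes are named in all comparisons. Of each pathway list the 3 genes with the largest log2 fold change among those called in KO vs. WT are named, and every gene called in 2 or more sets. Genes named outside this rule are marked as such, and a few genes that the rule selects are not reported here. Counts of 0 carry a floor of 3 counts per library, which covers counting error only. Promoters are from RefSeq (GRCm38.p6).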

Additional observations from a re-analysis of the deposited data

Results flagged for a closer look

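Over the 7 KO libraries, the highest library stood apart by Dixon's criterion for 5 of the 10 genes. By chance the criterion marks about 1 in 20 groups of normally distributed values. It was applied to CPM without a log scale, so this rate need not hold here, least for genes with few counts such as Fabp3. KO(Ctrl) 2 was the highest for Fabp5 (40.1 CPM), Fabp4 (9.61 CPM) and Fabp3 (0.477 CPM, from 8 counts), KO(WT) 3 for Elovl1 (525 CPM) and KO(WT) 2 for Fads6 (5.45 CPM). The 7 KO libraries come from 3 sets, so that differences between sets enter this comparison.

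The KO difference was larger in the WT set than in the Ctrl set for Elovl1 (by 1.11 on the log2 scale), Elovl2 (2.19), Elovl4 (1.75), Fads1 (1.00) and Fads2 (2.24), each past an edgeR adjusted p of 0.05. For Fads6 all KO libraries lay above the controls in the WT set and below them in the CreCtrl set. The difference of the log2 fold changes was 2.21 and did not pass (edgeR adjusted p = 0.159).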

How the results depend on the processing

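The numbers of genes called kept within 1.5 times of 9 in KO vs. WT (7 to 10), of 9 over the 3 sets (7 to 9) and of 0 in KO vs. Ctrl under every alternative run. In KO vs. CreCtrl the 5 calls became 0 in the fit of all 14 libraries as 6 groups and 2 to 8 with 1 library left out (8 without CreCtrl 1, 3 without CreCtrl 2, 2 without KO(CreCtrl) 2). For the difference between the WT and Ctrl sets the 5 calls became 2 with RLE, 2 with library size alone, 3 with the replicate block and 0 to 5 with 1 library left out (0 without Ctrl 2 or KO(Ctrl) 2). Between the WT and CreCtrl sets 4 were called with all genes of at least 1 count, 1 with at least 10 counts in every library and 0 to 2 with 1 library left out. Between the Ctrl and CreCtrl sets 2 were called with all genes of at least 1 count. The shares of all genes called were not kept for the alternatives in which these counts moved, and the causes of these changes were not tested.

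Signs turned only with 1 library left out, in differences that did not pass with all libraries. In KO vs. Ctrl the log2 fold change ranged from -0.25 to 0.57 for Elovl2, -1.68 to 1.52 for Fabp4, -4.55 to 0.38 for Fabp5, -0.17 to 1.10 for Fads2 and -0.16 to 0.05 for Fads6. The difference between the Ctrl and CreCtrl sets ranged from -0.19 to 0.24 for Elovl1, -6.42 to 2.15 for Fabp3 and -1.34 to 3.59 for Fabp5, that between the WT and CreCtrl sets from -1.12 to 0.52 for Fabp4, and that between the WT and Ctrl sets from -2.60 to 2.33 for Fabp5, where the -2.60 without KO(Ctrl) 1 passed (adjusted p = 0.0302), as did -1.63 with all genes of at least 1 count (adjusted p = 0.00654).

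Same-numbered libraries did not deviate together (correlations of -0.01, 0.08 and 0.19 for the WT set, -0.02 for the Ctrl set and 0.05 for the CreCtrl set), so replicate numbers do not pair them. The replicate block moved the calls in KO vs. WT from 9 to 8, by Fabp3 (adjusted p = 0.0525), and left 0, 5 and 9 in KO vs. Ctrl, KO vs. CreCtrl and over the 3 sets. Over all genes, with library size alone the median log2 fold change became -0.32, -0.11 and -0.24 in KO vs. WT, KO vs. Ctrl and KO vs. CreCtrl, and the share of higher among all calls became 30.3% (45.9% with TMM) in KO vs. WT and 7.36% (22.7%) in KO vs. CreCtrl. With 2 libraries a group in 2 sets, small differences cannot be shown there. In KO vs. Ctrl 0 of 15287 genes tested passed, and the large difference of Clic4 did not pass either.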
